A study of Mus musculus with 59 samples.

Results

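Transcripts of 37 lysosomal genes, chosen by symbol from the 19613 genes with a value, were followed in embryoid bodies exposed to serum from mice with and without an ALS transgene. They comprise 9 hydrolases and activators of glycolipid breakdown, 7 hydrolases of glycosaminoglycans, 5 of glycoproteins and glycogen, 2 palmitoyl thioesterases, 7 proteases, 5 membrane proteins, Grn, which encodes progranulin, and Tfeb. None of the 37 encodes a subunit of the proton pump that acidifies the lysosome (V-ATPase), so those subunits are given as a list of their own further on.

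The lysosome is the acid compartment in which cells take apart lipids, sugars, proteins and whole organelles. Its hydrolases each break 1 kind of bond, are made in the endoplasmic reticulum and reach the lysosome through sorting receptors, and many of them need an activator protein or a processing protease to work. Loss of a single hydrolase, activator or membrane protein causes a lysosomal storage disease, often with loss of neurons. The transcription factor TFEB, the product of Tfeb, is known to bind a short palindromic element, CACGTG with its flanks, near the start of many lysosomal genes.

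The indicator cells were embryoid bodies containing spinal motor neurons, a mixed culture in which motor neurons are 1 of several cell types, made from mouse embryonic stem cells that carry a GFP reporter driven by the HB9 promoter (HBG3 in the labels, HGB3 in the study's methods, 1 line). They were exposed for 24 h to serum of male mice hemizygous for SOD1(G93A), a mutant human transgene of the line B6SJL-Tg(SOD1*G93A)1Gur/J, taken before symptoms, or to serum of non-carrier littermates, and all mice were F1 progeny of C57BL/6 and SJL. The cells themselves carried no SOD1 transgene that the labels or methods name, so what was compared is the response of the same kind of cell to 2 kinds of serum. Of the arrays, 29 followed carrier serum and 30 non-carrier serum, and the labels give 9 weeks for 53 of them and 10 weeks for 6. The labels do not say whether these are ages of the mice. Both fall within the age range that the study's methods give for the mice when serum was taken.

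No batch is labelled, so the arrays were sorted by their titles, by shared name or neighbouring number, into 9 runs. These are the runs titled motorneuron (3 carrier and 4 non-carrier arrays), HB9MNs (2 and 2) and 10-week (3 and 3), and 6 runs known by numbers only and called A, B, E and F (3 and 3 each), C (6 and 5) and D (3 and 4). Run C holds more arrays than were assayed at 1 time and so more than 1 batch. Array medians ranged from 151.5 to 182.7 (carrier) and from 153 to 177.4 (non-carrier) in linear intensity, and precision is set by how many arrays there are. The motorneuron run stood apart from the others, with 48.9% of all genes highest there and 16.6% lowest. By Grubbs' test 2 arrays, a carrier one in run E and a non-carrier one in run C, correlated less with their runs than the rest, and results were also computed without them. The labels do not say which arrays share a culture or an animal, so p-values measure the spread between arrays.

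The sequences upstream of the genes are shown first, because the members are known for a shared element. RefSeq promoter windows (GRCm38.p6, 250 bases before to 50 after the start) were found for 34 of the 37 genes, all but Asah1, Galns and Ctsb. The letters CACGTG, which read the same on both strands, occurred in the window of 13 of these 34 genes (38.2%), against 8.09% of all 27025 genes of the promoter table and 9.68% of the 13453 with a value on the arrays. The longer palindrome TCACGTGA, every copy of which contains CACGTG, occurred in 5 of the 34 (14.7%; Cln3, Ctsa, Ctsd, Gla and Mcoln1), against 1.12% of all genes of the table and 1.6% of those with a value. The other 8 genes with CACGTG were Arsa, Ctsl, Gaa, Glb1, Lamp1, Lgmn, Naglu and Sgsh. A match in these windows is a description of the letters, not of binding.

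The 250 bases before the start are given for Gaa and Psap, the 2 genes that passed the serum test, for Ctsd, which holds TCACGTGA and had the most negative change, and for Lamp1, which holds the most copies. Capitals mark CACGTG or, where its flanks complete it, TCACGTGA. Positions are counted from the start of the transcript, negative before it.
Gaa, chr11:119267713-119267962, plus strand: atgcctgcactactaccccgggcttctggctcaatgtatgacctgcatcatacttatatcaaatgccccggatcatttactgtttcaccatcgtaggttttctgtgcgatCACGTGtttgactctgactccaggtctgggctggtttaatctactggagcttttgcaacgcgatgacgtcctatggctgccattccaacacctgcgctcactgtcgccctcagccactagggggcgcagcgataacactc
Ctsd, chr7:142387828-142388077, minus strand: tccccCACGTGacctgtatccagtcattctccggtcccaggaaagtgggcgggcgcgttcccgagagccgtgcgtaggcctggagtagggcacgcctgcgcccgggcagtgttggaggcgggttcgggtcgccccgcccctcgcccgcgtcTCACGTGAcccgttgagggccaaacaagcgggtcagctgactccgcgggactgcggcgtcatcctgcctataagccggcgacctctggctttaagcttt
Lamp1, chr8:13158911-13159160, plus strand: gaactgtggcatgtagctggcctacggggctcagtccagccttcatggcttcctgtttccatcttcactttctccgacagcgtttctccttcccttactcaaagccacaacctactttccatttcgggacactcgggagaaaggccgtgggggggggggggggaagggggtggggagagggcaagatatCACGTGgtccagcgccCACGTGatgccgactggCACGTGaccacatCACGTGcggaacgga
Psap, chr10:60277378-60277627, plus strand, the more upstream of its 2 windows: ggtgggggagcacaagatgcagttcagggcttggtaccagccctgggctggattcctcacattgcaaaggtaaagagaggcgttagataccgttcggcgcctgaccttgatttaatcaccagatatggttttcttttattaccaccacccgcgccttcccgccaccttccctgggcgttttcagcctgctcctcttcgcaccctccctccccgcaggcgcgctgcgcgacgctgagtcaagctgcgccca

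In Gaa the single copy began at -140. In Ctsd the copies began at -245 and -98, the second lying in TCACGTGA. In Lamp1, which encodes the most abundant glycoprotein of the lysosomal membrane, 4 copies began at -61, -45, -28 and -15. Neither window of Psap held the letters, and neither did those of Tfeb itself and Grn.

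With carrier serum 2 of the 37 transcripts passed the test, both lower, and 35 did not. Psap, the precursor of the saposins that present glycolipids to their hydrolases, was lower by 0.068 on the log2 scale (SE 0.017), which is -4.58% in intensity, with a limma adjusted p of 0.02015. Gaa, the acid alpha-glucosidase that degrades glycogen, was lower by 0.095 (SE 0.026), which is -6.4%, with a limma adjusted p of 0.03204. No member rose past the threshold of 0.05. The changes are carrier minus non-carrier differences of log2 intensity, fitted over all 59 arrays with the run as a block and adjusted over all 19613 genes.

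These 2 calls among 37 genes stand against 2.33% of all genes called in either direction, 1.65% lower and 0.683% higher. The share called lower was larger among brighter genes, as given further on. Of all calls 29.3% were higher, 40.5% with quantile normalization and 48.6% with array weights. With the run and 4 motor neuron genes (Olig2, Mnx1, Isl1 and Lhx3) as covariates the split turned, and 64.5% of the calls were higher. With 1 run left out, between 0 (without run A, D or 10-week) and 11 (without run C) members were called lower, and with array weights 15 were. At an unadjusted limma p of 0.05 or less, 15 members passed, 13 of them lower and 2 higher (Cln3 and Ppt1), where 20.7% of all genes did. The fitted change was negative for 26 of 37 members (70.3%) against 38.9% of all genes, and its median was -0.040 against 0.016 over all genes. The members were chosen with earlier results of these data known, so this contrast is a description and not independent evidence. The changes ran from -0.098 (Ctsd) to 0.073 (Ppt1). For all 37 genes the values with the 2 sera overlapped when all runs were pooled, but the share over all genes was not counted. Pooled values also hold the differences between runs, which were larger than those between sera for every member. A culture with fewer cells of a type and one with less RNA per cell cannot be told apart in such bulk samples.

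**Figure D1:**
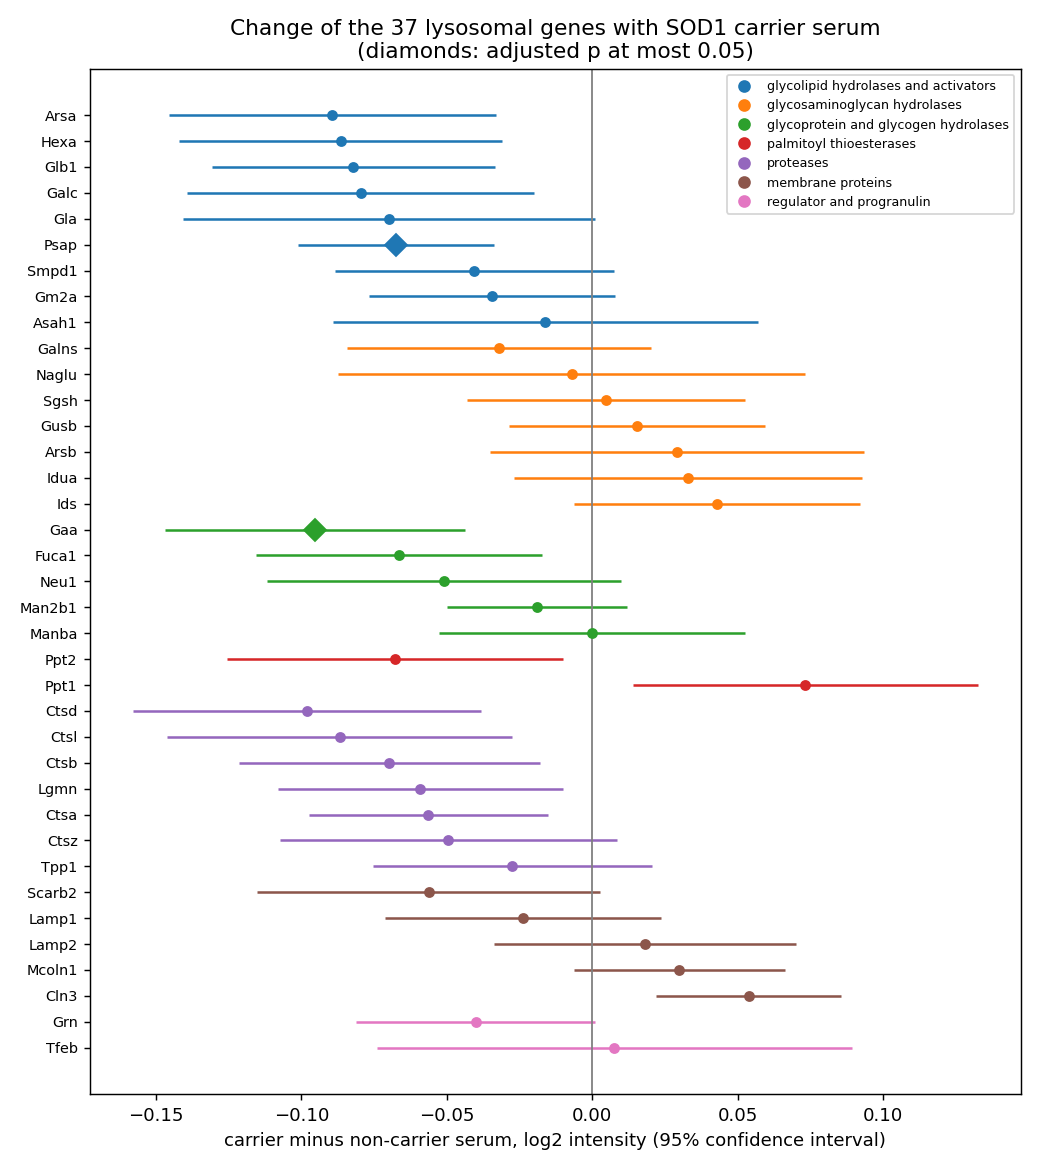
Change of each of the 37 lysosomal genes with carrier serum, as the carrier minus non-carrier difference of log2 intensity with its 95% confidence interval (x axis), genes grouped by role (y axis and colours). Psap and Gaa, drawn as diamonds, passed an adjusted p of 0.05, and all 9 glycolipid genes and all 7 proteases lie left of 0.

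Signal level moved with the change over all genes, which were sorted into 4 equal bins by mean signal. Genes of the dimmest bin had a median change of 0.059 and 14.4% of them were negative, whereas the medians of the third and the brightest bins were -0.0063 and -0.012, with 55.5% and 62.2% negative. No member lay in the dimmest bin. Of the 5 members in the second bin (Naglu, Manba, Arsb, Galns and Tfeb) 2 were negative, of the 14 in the third 10 were, with a median of -0.059, and of the 18 in the brightest 14 were, with a median of -0.040. The genes of the brighter bins are the nearer background for most members, and 58.9% of all genes above the median signal were negative. Of all genes in the third bin 2.57% were called lower and 0.51% higher. In the brightest bin, which holds Psap and Gaa, 3.51% were called lower and 1.04% higher. The part of signal level in the members' changes was not tested.

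**Figure D2:**
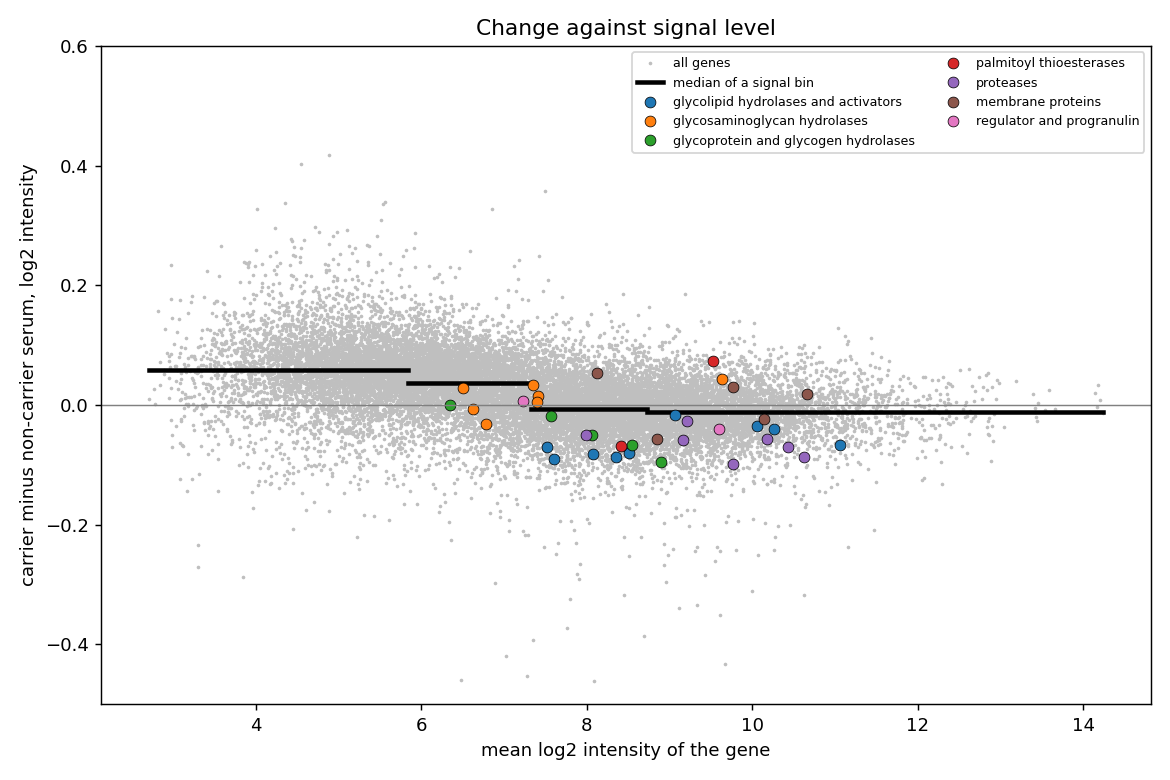
Change with carrier serum (y axis, log2 intensity) against the mean log2 intensity of each gene over the arrays (x axis), with all 19613 genes in grey, the 37 lysosomal genes coloured by role and black bars at the median change of each of 4 bins of genes by signal. Most members lie on the right, in the bins whose medians are -0.0063 and -0.012, and 24 of these 32 lie below 0.

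The glycolipid group holds the hydrolases that strip sugars, sulfate or choline phosphate from membrane lipids and the activators that lift the lipids out of the membrane. All 9 of its genes had a negative change, with a median of -0.070, and 1 passed the test. Psap lay between 10.55 and 11.21 with carrier serum (median 11.09) and between 10.58 and 11.23 with non-carrier serum (median 11.15). The group means were 11.03 ± 0.18 (SD, n = 29) and 11.09 ± 0.17 (SD, n = 30), so the groups overlapped almost wholly. The lowest values were those of the motorneuron run, whose 7 arrays lay between 10.55 and 10.82 while the other 52 lay between 10.96 and 11.23.

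Within runs the carrier mean of Psap was below the non-carrier mean in 8 of 9. The difference was largest in the motorneuron run (-0.13) and in run F (-0.12), was -0.073 in run A and -0.076 in both run D and the 10-week run, and was 0.009 in the HB9MNs run. Without the motorneuron run the change was -0.060 (limma adjusted p 0.03013), and without the 2 less correlated arrays -0.065 (limma adjusted p 0.02005). Without run A, D, F or 10-week, Psap no longer passed, at changes of -0.067, -0.067, -0.062 and -0.067.

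The other glycolipid genes did not pass over all genes. Arsa, arylsulfatase A, which removes sulfate from sulfatide, lay between 7.10 and 7.91 with carrier serum (median 7.58) and between 7.33 and 7.94 with non-carrier serum (median 7.67). Its change was -0.089 (SE 0.028, limma adjusted p 0.06827), with the carrier mean lower in 7 of 9 runs, by as much as 0.22 in run A, and higher by 0.10 in run F. Without run C it was -0.11 and passed, as it did without run F.

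Glb1, the beta-galactosidase that acts on GM1 ganglioside, lay between 7.73 and 8.33 with carrier serum (median 8.004) and between 7.79 and 8.38 with non-carrier serum (median 8.14). Its change was -0.082 (SE 0.024, limma adjusted p 0.05381), just outside the threshold, and it was negative in all 9 runs, from -0.0061 in the motorneuron run to -0.14 in run E. Without the motorneuron run it was -0.092 and passed (limma adjusted p 0.02185).

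Galc, the galactosylceramidase whose loss causes Krabbe disease, also had a negative difference in all 9 runs, with a change of -0.080 (SE 0.030, limma adjusted p 0.1264). Its runs differed far more than its sera did, and the carrier values spanned 7.70 to 9.09. Smpd1, acid sphingomyelinase, Gm2a, the GM2 activator, and Asah1, acid ceramidase, had changes of -0.041, -0.034 and -0.016.

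Hexa and Gla, with Ppt1 and Ppt2 below, belong to a gene list that the study chose on training arrays of this series, so their changes over all arrays are not independent evidence of their direction. Hexa encodes the alpha subunit of beta-hexosaminidase, which cuts GM2 ganglioside. It lay between 7.91 and 8.69 with carrier serum (median 8.33) and between 8.16 and 8.72 with non-carrier serum (median 8.39), with a change of -0.086 (SE 0.028, limma adjusted p 0.07633). The carrier mean was lower in 7 of 9 runs, by 0.24 in run A and 0.17 in runs B and D, and it was higher by 0.055 in run C. Without run C the change was -0.12 and passed.

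Gla, the alpha-galactosidase A of globotriaosylceramide breakdown, lay between 7.14 and 7.83 with carrier serum (median 7.47) and between 6.90 and 7.85 with non-carrier serum (median 7.62). Its change was -0.070 (SE 0.035, limma adjusted p 0.2468), with the carrier mean lower in 8 of 9 runs. In runs E and F, the arrays with the highest numbers, the changes of Hexa and Gla were -0.14 (limma adjusted p 0.3778) and -0.11 (0.3985).

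The hydrolases of glycosaminoglycans, which degrade heparan, dermatan and keratan sulfate, took no common direction. Of the 7 genes 2 were negative, 0 passed in either direction, 0 passed without adjustment, and the median change was 0.015. Most of the group was dim. Arsb, Naglu and Galns lay in the second bin by signal, where all genes had a median change of 0.037 and 23.5% were negative. Idua, Sgsh and Gusb had only 50.4% to 51.5% of genes dimmer than they were. No glycolipid gene or protease lay in the second bin, and the part of signal level in this contrast was not tested. The changes ran from -0.032 for Galns, a galactosamine-6-sulfatase, to 0.043 for Ids, iduronate-2-sulfatase, which was higher in 8 of 9 runs (limma adjusted p 0.3044). Idua, alpha-iduronidase, and Arsb, arylsulfatase B, had changes of 0.033 and 0.029, and Gusb, Sgsh and Naglu of 0.015, 0.0047 and -0.0071. With quantile normalization of the arrays 4 of the 7 were negative and the median was -0.00026, so the sign of this group depends on the scaling. With the run and 4 motor neuron genes as covariates 1 of the 7 was negative, the median was 0.062 and 2, Gusb and Idua, were called higher.

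The serum difference of Arsb changed sign between runs, as did that of every member but Gaa, Glb1 and Galc. The carrier minus non-carrier difference of Arsb was 0.26 in the motorneuron run, 0.14 in runs D and F and -0.15 in run C. It was -0.22 in the HB9MNs run, which has 2 arrays of each serum. In the limma test of a serum difference that is not the same in all runs Arsb had the lowest unadjusted p of the members (0.00507). It did not pass (adjusted p 0.373).

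Among the 5 genes of glycoprotein and glycogen breakdown 4 were negative, with a median of -0.051, and Gaa passed. Gaa lay between 8.46 and 9.20 with carrier serum (median 8.85) and between 8.50 and 9.26 with non-carrier serum (median 8.97), with means of 8.86 ± 0.19 (SD, n = 29) and 8.945 ± 0.18 (SD, n = 30). Within runs its carrier mean was below the non-carrier mean in 9 of 9, by 0.20 in run E, 0.17 in run A, 0.11 in the motorneuron run, run F and the 10-week run, and by only 0.003 in run C. The lowest single value, 8.46, was a carrier array of run E.

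Without the motorneuron run the change of Gaa was -0.093 (limma adjusted p 0.02660), and without the 2 less correlated arrays -0.088 (0.02428). It did not pass without run A, B, D, E, F or 10-week, when its change lay between -0.097 and -0.083. With the run and 4 motor neuron genes as covariates its change was -0.061 (limma adjusted p 0.09811), and after a correction for these 4 genes fitted on the non-carrier arrays, with no block, -0.041 (0.6841). Fuca1, alpha-fucosidase, had a change of -0.066 (SE 0.024, limma adjusted p 0.1209), with -0.24 in run A. Neu1, sialidase, and Man2b1, alpha-mannosidase, had changes of -0.051 and -0.019, and the 95% confidence interval of the change of Manba, beta-mannosidase, ran from -0.053 to 0.053 around 0.

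The 2 palmitoyl thioesterases had changes of opposite sign, and neither passed, though both had an unadjusted limma p of 0.05 or less. Ppt1, whose loss causes infantile neuronal ceroid lipofuscinosis, lay between 9.12 and 10.0 with carrier serum (median 9.50) and between 8.88 and 9.93 with non-carrier serum (median 9.48). Its change of 0.073 (SE 0.030, limma adjusted p 0.1562) was the highest of the 37. The carrier mean was higher in 7 of 9 runs, by 0.20 in run D, 0.18 in the motorneuron run, 0.17 in run A and 0.15 in run B, and lower by 0.10 in run C and 0.059 in run F. Leaving out run C gave 0.11 with a limma adjusted p of 0.005002.

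Ppt2 lay between 7.90 and 8.75 with carrier serum (median 8.38) and between 8.15 and 8.68 with non-carrier serum (median 8.45), with a change of -0.068 (SE 0.029, limma adjusted p 0.1777). It too differed in run C from the rest, at 0.14 there against -0.19 in run A and -0.15 in run E, and without run C its change was -0.12 and passed. In runs E and F the changes of Ppt1 and Ppt2 were 0.0023 and -0.14 (limma adjusted p 0.984 and 0.4215).

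All 7 proteases had negative changes, with a median of -0.059, under the reported fit and each of the 22 alternatives. None passed over all genes (0 of 7 by limma), and 5 had an unadjusted p of 0.05 or less. Ctsd encodes cathepsin D, the main aspartic protease of the lysosome. It lay between 9.34 and 10.08 with carrier serum (median 9.72) and between 9.57 and 10.26 with non-carrier serum (median 9.80), with means of 9.72 ± 0.20 (SD, n = 29) and 9.83 ± 0.17 (SD, n = 30).

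The change of Ctsd, -0.098 (SE 0.030), was the most negative of the 37, with a limma adjusted p of 0.05961. The carrier mean was lower by 0.23 in run E, 0.21 in run A, 0.20 in run F, 0.13 in run D and 0.12 in the 10-week run, nearly equal in run C (-0.0026) and higher by 0.056 and 0.018 in the HB9MNs and motorneuron runs. Without the motorneuron run it was -0.11 and passed (limma adjusted p 0.01869), and without the 2 less correlated arrays it was -0.083 (0.05267).

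**Figure D3:**
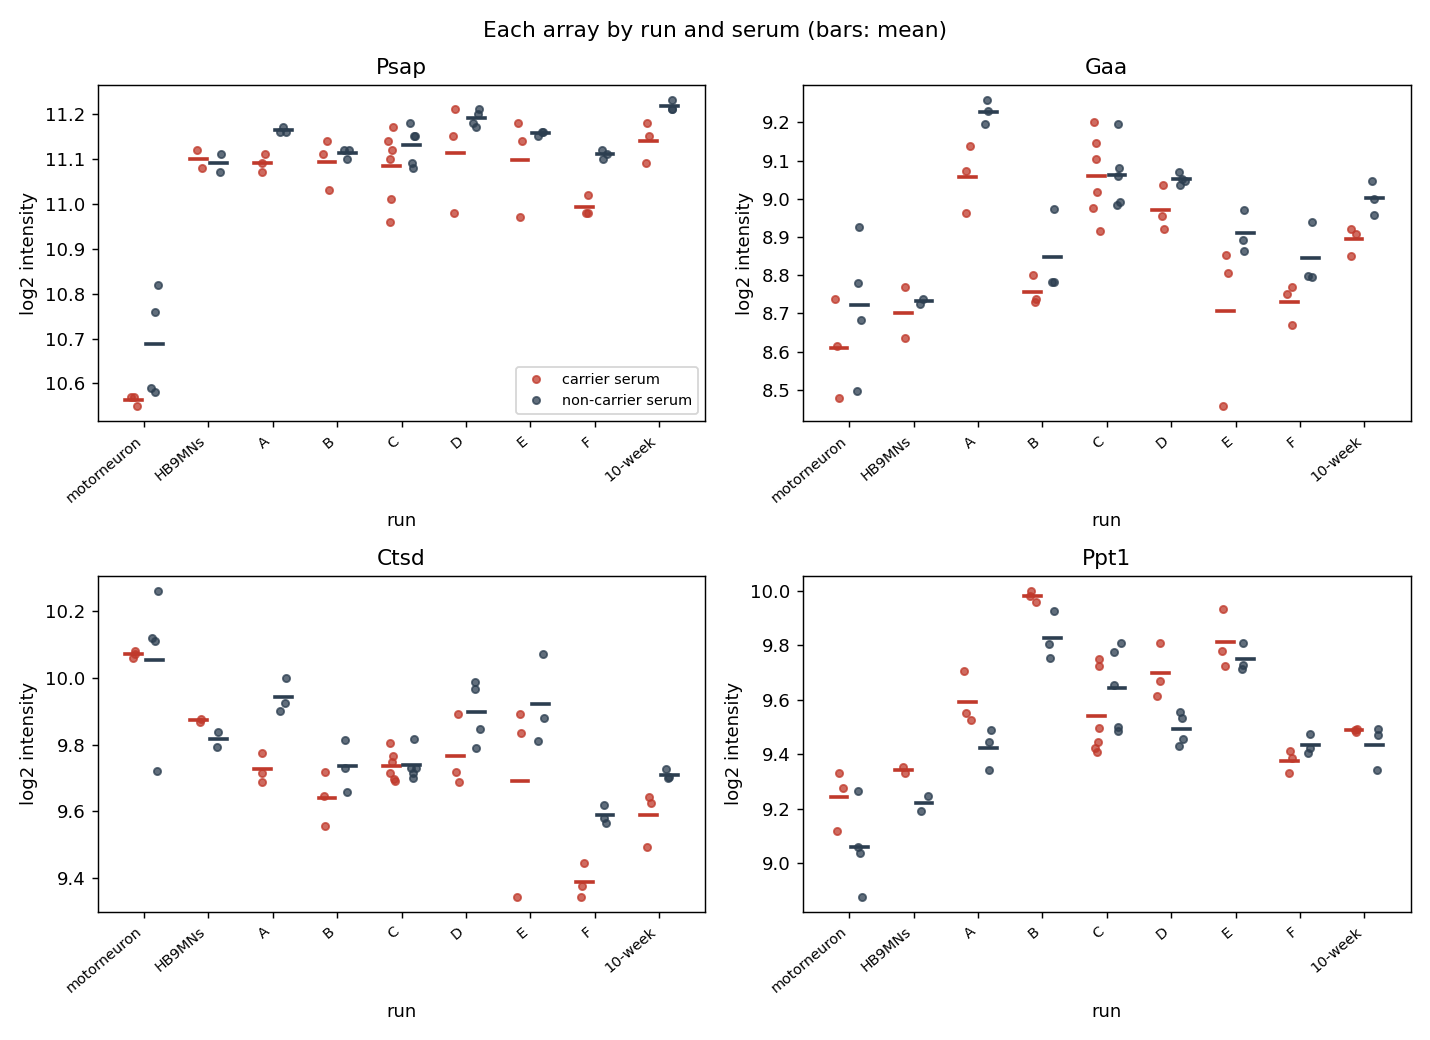
Log2 intensity (y axis) of Psap, Gaa, Ctsd and Ppt1 on each array, by run (x axis) and serum (colour), with a bar at each group mean. Carrier means of Psap lie below the non-carrier means in 8 of 9 runs and those of Gaa in 9 of 9, those of Ppt1 lie above in 7 of 9, and Psap is lowest in the motorneuron run.

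Ctsl, cathepsin L, a cysteine protease, lay between 10.10 and 10.92 with carrier serum (median 10.66) and between 10.19 and 11.03 with non-carrier serum (median 10.67). Its change was -0.087 (SE 0.030, limma adjusted p 0.09522), with the carrier mean lower in 8 of 9 runs, most in run A (-0.24) and run B (-0.15). Ctsb, cathepsin B, had a change of -0.070 (0.1222), lower in 8 of 9 runs. Lgmn, the asparaginyl endopeptidase legumain, and Ctsa, the protective protein of Glb1 and Neu1, had changes of -0.059 and -0.056, and Ctsz and Tpp1, the tripeptidyl peptidase, of -0.049 and -0.027.

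The 5 membrane proteins did not share a direction, with 2 negative changes and a median of 0.018, and 0 passed by limma, with 1 at an unadjusted p of 0.05 or less. Cln3, a multispanning protein whose loss causes juvenile neuronal ceroid lipofuscinosis, was the member nearest to passing in the higher direction. It lay between 7.96 and 8.40 with carrier serum (median 8.14) and between 7.84 and 8.35 with non-carrier serum (median 8.16), with a change of 0.054 (SE 0.016, limma adjusted p 0.05398) and a higher carrier mean in 8 of 9 runs. With quantile normalization it passed.

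Lamp1 ranged from 9.87 to 10.45 after carrier and from 9.90 to 10.48 after non-carrier serum, both with a median of 10.12. Its change was -0.024 (SE 0.024, limma adjusted p 0.5605), with the carrier mean lower in 5 of 9 runs, between -0.14 in run E and 0.12 in run B. Lamp2, the other main membrane glycoprotein, had a change of 0.018, Mcoln1, a cation channel, of 0.030, and Scarb2, the receptor that carries beta-glucocerebrosidase to the lysosome, of -0.056 (limma adjusted p 0.2612).

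Tfeb lay between 6.39 and 7.72 with carrier serum (median 7.29) and between 6.49 and 7.65 with non-carrier serum (median 7.27), with means of 7.22 ± 0.31 (SD, n = 29) and 7.23 ± 0.27 (SD, n = 30). Its change was 0.0075 (SE 0.041, limma adjusted p 0.9284), with an interval from -0.074 to 0.089. Within runs the difference ran from -0.29 in the HB9MNs run to 0.18 in run F, and its sign turned under 7 of 21 alternatives. TFEB is mainly controlled by where the protein sits in the cell, which these arrays do not measure.

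Grn, whose product is cut into granulins in the lysosome, lay between 8.99 and 9.84 with carrier serum (median 9.66) and between 8.96 and 9.88 with non-carrier serum (median 9.66). Its change was -0.040 (SE 0.020, limma adjusted p 0.251), with the carrier mean lower in 7 of 9 runs. Of the 13 genes with CACGTG upstream 10 were negative, with a median of -0.059, and of the 21 without it 13 were, with a median of -0.034, each set with 1 call, and the difference was not tested.

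The 12 arrays of runs E and F and the other 47 were also fitted apart. In runs E and F 28 of the 37 members were lower, against 8508 of all 19613 genes, with a median of -0.075 against 0.019. Of the members 0 passed by limma, where 0.0867% of all genes did, and 6 had an unadjusted p of 0.05 or less, all lower. In the other arrays 28 members were lower, against 7986 of all genes, with a median of -0.030 against 0.011. There 0 passed by limma, where 0.301% of all genes did, and 14 had an unadjusted p of 0.05 or less, 11 of them lower. The share of all genes at that unadjusted p was not counted for these 2 fits. Psap and Gaa had changes of -0.088 and -0.16 in runs E and F (limma adjusted p 0.3952 and 0.3724) and of -0.062 and -0.079 in the others (0.1386 and 0.1885).

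Whether the serum difference itself varied between runs was tested with the interaction of serum and run. None of the 37 members passed (limma, 0 of 37, against 0.127% of all genes), and 3 had an unadjusted p of 0.05 or less, where 1557 of 19613 genes did, Arsb (0.00507), Lamp2 (0.036) and Ppt1 (0.04918), with adjusted p of 0.373, 0.594 and 0.628. By run, the number of members with a lower carrier mean was 32 in run E, 27 in runs A, B and D, 24 in run F and the 10-week run, 22 in run C and 18 in the motorneuron and HB9MNs runs. The mean difference over the members ran from -0.093 in run E to 0.011 in the motorneuron run. The share of all genes that were lower ran from 40% in run F to 60% in the HB9MNs run and did not follow the members' order.

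**Figure D4:**
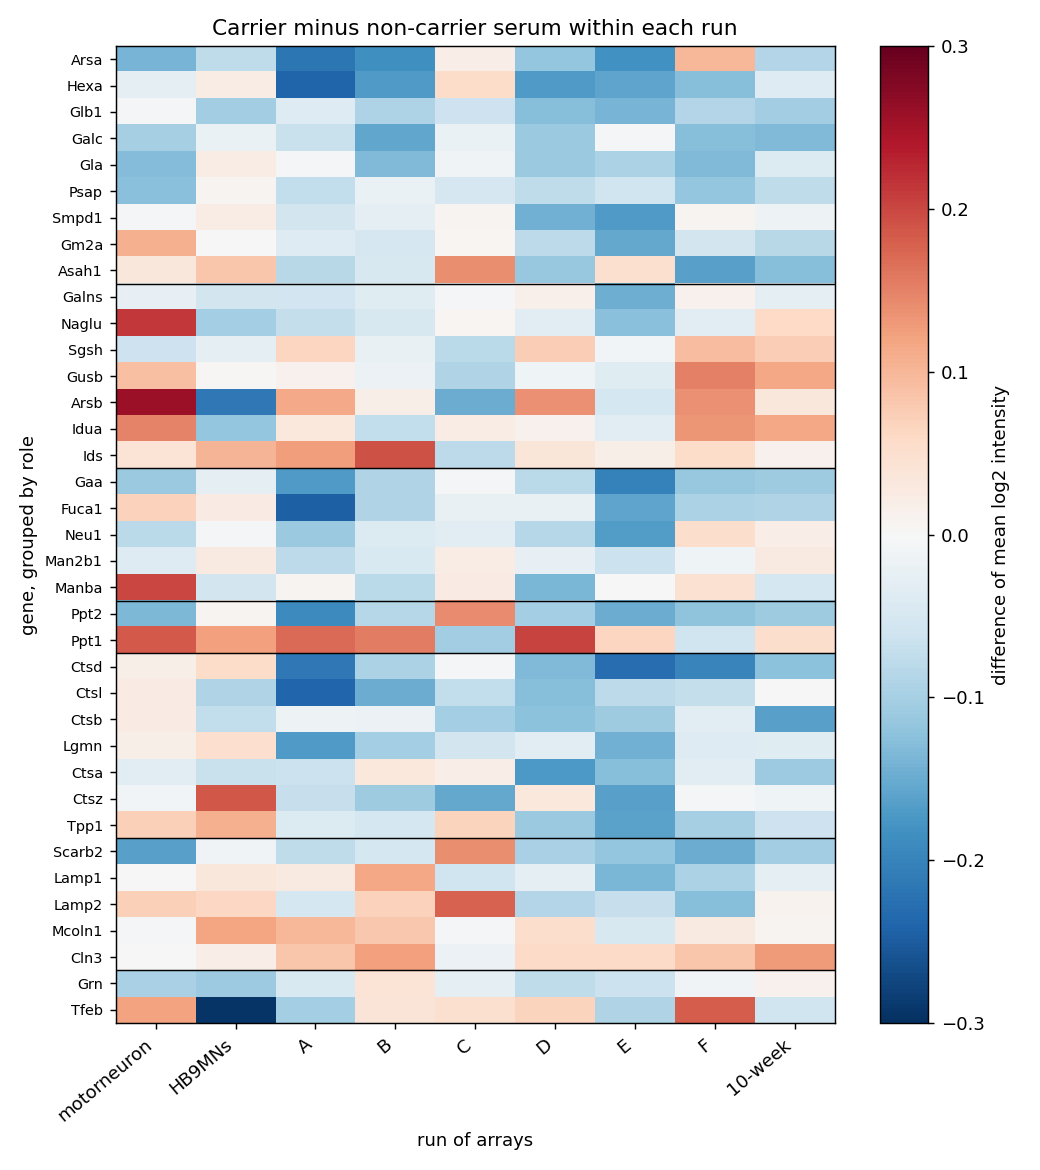
Carrier minus non-carrier difference of mean log2 intensity (colour, blue lower and red higher with carrier serum) of each of the 37 genes (y axis, grouped by role) within each of the 9 runs (x axis). Run E is blue for 32 genes, the motorneuron and HB9MNs runs for 18 each, and Gaa, Glb1 and Galc are blue in every run.

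The differences between runs were larger than those between sera for every member. All 37 passed the limma test of differences between runs, as 94.0% of all genes did, and the run accounted for between 31.4% (Scarb2) and 90.04% (Grn) of a member's variance, with a median of 69.1% against 62.5% over all genes. The distance from the lowest to the highest run mean had a median of 0.46 on the log2 scale (0.53 over all genes), and the SD between arrays of the same run and serum had a median of 0.099 (0.13 over all genes). The median size of the serum change was 0.049.

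The motorneuron run held the highest mean of 15 members (40.5%, against 48.9% of all genes) and the lowest of 7 (18.9%, against 16.6%). Tpp1 was between 9.70 and 9.88 on its 7 arrays and between 8.76 and 9.35 on the other 52. Ctsa was between 10.55 and 10.78 against 9.77 to 10.38, and Smpd1 between 10.64 and 10.84 against 9.75 to 10.45. Lamp2 was between 10.85 and 11.31 there and reached 10.79 elsewhere.

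Galc went the other way. It was between 7.70 and 7.95 on the arrays of the motorneuron run and between 8.13 and 9.09 elsewhere, and its run means went from 7.81 there to 8.97 in run E, the widest range of the members (1.17). Psap and Grn were also lowest in the motorneuron run, with run means of 10.64 and 9.12 against at most 11.18 and 9.79. Tfeb was high in the motorneuron run (7.55) and low in run E, where its 6 arrays lay between 6.39 and 6.82 and all others between 6.94 and 7.72.

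The proteases Ctsl and Ctsd peaked in different runs. Ctsl was lowest in run B (10.21) and highest in the HB9MNs run (10.94), and Ctsd was lowest in run F (9.49) and highest in the motorneuron run (10.06). Ppt1 was highest in run B (9.90). Run F held the lowest mean of 10 members and run B of 9. The least variable gene was Man2b1, with run means within 0.20 of each other. Without the motorneuron run the median range of run means was 0.41 for the members and 0.38 over all genes. The labelled weeks and the run cannot be told apart for the 10-week arrays.

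**Figure D5:**
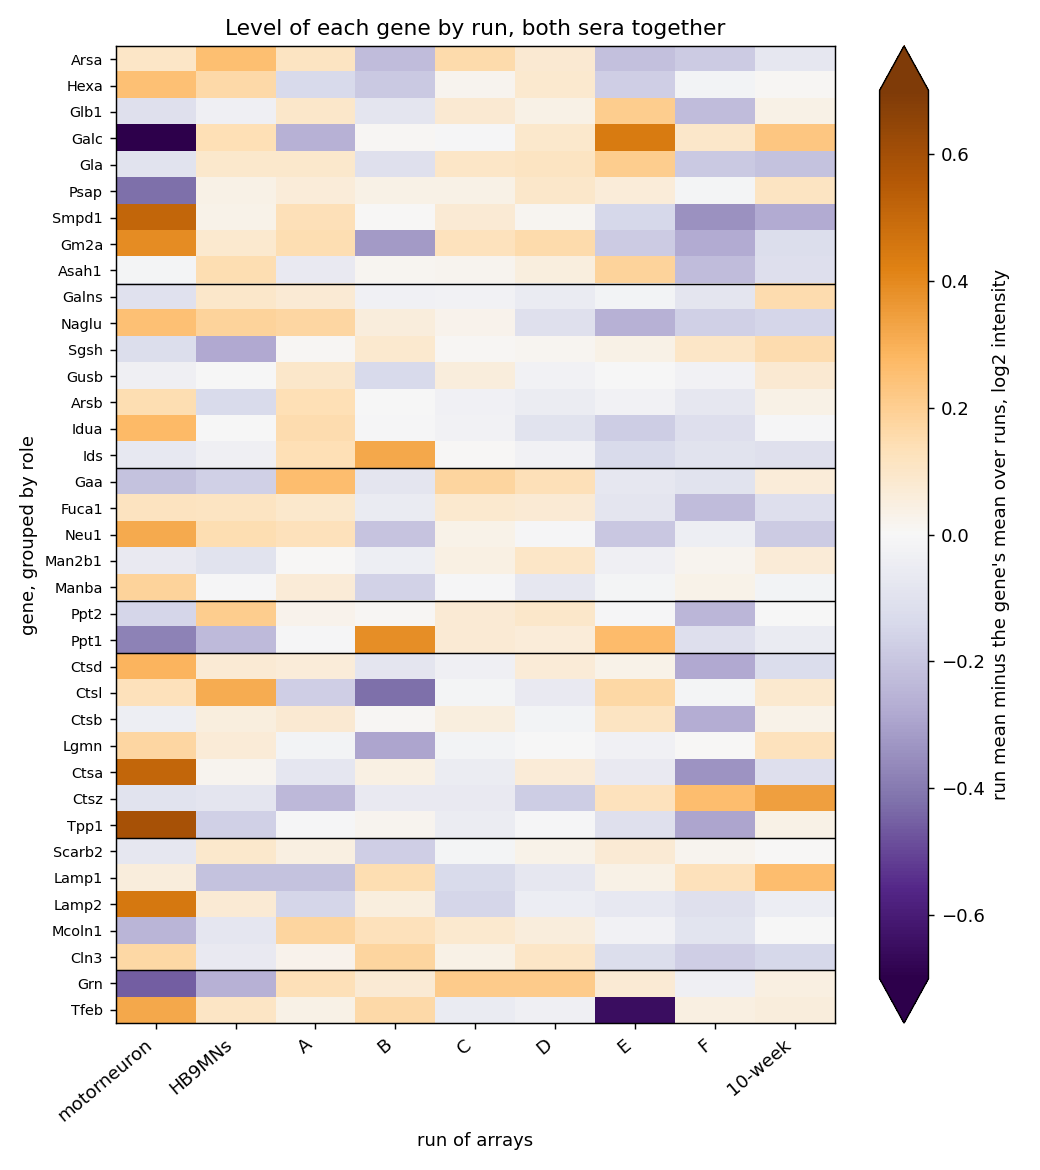
Mean log2 intensity of each of the 37 genes (y axis, grouped by role) in each of the 9 runs (x axis), both sera together, as the difference from the gene's mean over runs (colour, orange higher and purple lower). Tpp1, Ctsa, Smpd1 and Lamp2 are orange and Galc, Psap and Grn purple in the motorneuron run, and Tfeb is purple in run E.

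Other genes of the lysosomal pathway were taken from lists. Over all genes 1.65% were called lower and 0.683% higher. An unadjusted limma p of 0.05 or less was held by 20.7% of all genes, 1703 lower and 2354 higher. Of 24 measured subunits of the V-ATPase proton pump, 0 passed in either direction by limma, 14 were negative and 7 of them had an unadjusted p of 0.05 or less, and the lowest change was that of Atp6v1g2 (-0.086, adjusted p 0.09591). Of 29 other lysosomal hydrolases 2 were called lower, Pla2g15, a phospholipase, with -0.097 (limma adjusted p 0.01694), and Scpep1, a serine carboxypeptidase, with -0.14 (0.02195). Of 25 other membrane and transport proteins 1 was called, Slc17a5, the sialic acid exporter, which was higher by 0.099 (limma adjusted p 0.04953) and was called in 8 of 22 alternative settings. Pla2g15 was called in 17 of them and Scpep1 in 15.

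Among 18 genes of enzyme sorting and maturation Ap1b1, a subunit of the clathrin adaptor that carries hydrolases from the Golgi, was lower by 0.083 (limma adjusted p 0.007749) and lower in 9 of 9 runs. Of 19 genes around TFEB and its lysosomal control 0 passed by limma and 15 were negative, 3 of them with an unadjusted p of 0.05 or less. Of 29 autophagy genes 3 were called lower, Sqstm1, which encodes the cargo receptor p62 (-0.074, limma adjusted p 0.0131), Wipi2 (-0.077, 0.0402) and Atg14 (-0.079, 0.04926). Of the alternative settings Ap1b1 was called in 19 of 22, Sqstm1 in 18 of 22, Wipi2 in 11 of 22 and Atg14 in 9 of the 21 that kept it. Each of these lists had a median change between -0.028 and 0.00083, below the 0.016 of all genes and above the -0.040 of the 37 members. The medians of all genes in the third and brightest bins by signal, -0.0063 and -0.012, lay within that span. Of all genes in these bins 2.57% and 3.51% were called lower, against 1.65% of all genes, and whether any list exceeded these shares was not tested.

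Markers of the cell types that such cultures may hold were set beside these values. Over all genes 0.683% were called higher and 1.65% lower, and in the brightest bin 1.04% were called higher and 3.51% lower. An unadjusted limma p of 0.05 or less was held by 20.7% of all genes. Of 9 pan-neuronal markers 3 were called higher with carrier serum, Snap25 (0.074, limma adjusted p 0.01664), Nefl (0.058, 0.02502) and Stmn2 (0.061, 0.04001), and these calls held in 16, 13 and 11 of 22 alternative settings. Of the 9 markers 3 were negative, among them Rbfox3 (-0.063, limma adjusted p 0.2406), the one with a lower value at an unadjusted p of 0.05 or less, and the median change was 0.014. The summed intensity of the list ran from 31200 to 38200 with carrier serum and from 29030 to 36350 with non-carrier serum. Of 9 motor neuron markers 1 was called higher, Slc5a7 (0.15, limma adjusted p 0.04099), in 12 of 22 alternative settings too, with 5 positive and 4 negative. At an unadjusted p of 0.05 or less 4 were higher and 2 lower, Lhx1 (-0.089) and Lhx3 (-0.086). The defining marker Mnx1 had a change of -0.035 (limma adjusted p 0.5877), and the list had summed intensities from 4681 to 6425 and from 4693 to 6225. Of 7 astrocyte and radial glia markers 1 was called lower, Slc1a2 (-0.068, limma adjusted p 0.03067), in 12 of 22 alternative settings too. Of these 7 markers 5 were positive, and the median change was 0.022.

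Macrophages and microglia, cells rich in lysosomes, had 0 of 11 markers called by limma (2 at an unadjusted p of 0.05 or less), with 10 of 11 changes positive. Over all genes 11984 of 19613 changes were positive. The list was dim, with a median level of 6.26 (carrier) and 6.22 (non-carrier) in mean log2 intensity. Of all genes in the dimmest and second bins, only 14.4% and 23.5% were negative. The list's summed intensity ran from 736.7 to 1348 with carrier serum and from 748 to 1326 with non-carrier serum. The lists for extraembryonic endoderm (12 genes), motor neuron progenitors (8), pluripotent cells (8) and mesenchyme and muscle (9) had 0 calls by limma. In the same order 11, 3, 6 and 5 of their changes were positive. At an unadjusted limma p of 0.05 or less they held 5, 2, 2 and 3 genes, of which 4, 0, 2 and 2 were higher. Of all genes 20.7% had such a p. The part of these markers in the members' changes was not tested.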

How the data were processed

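Affymetrix mouse exon arrays of 59 cultures were used. The deposited values are linear RMA intensities that the authors made with aroma.affymetrix, as the mean over the exons of each gene, with all arrays normalized together and arrays called by Grubbs' test removed beforehand. The scale on which exons were averaged is not given in the sources used here. The labels' processing notes also name Affymetrix Expression Console.

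Changes were estimated on log2 intensities (pseudocount 0) of all 19613 genes by linear models with a term for run and moderated errors (limma 3.58.1, lmFit and eBayes; R 4.3.3). Tests were two-sided, p-values were adjusted by Benjamini-Hochberg across the whole table, and 0.05 was the threshold. The fit was also run on simulated data. All planted changes there were larger than any member's change, so that run does not show how well changes of the members' size are found. No gene was filtered out. The run differences used an F test of the same model. The interaction used an F test of a model with serum-by-run terms added.

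The members and lists were chosen with earlier results of these data known. Full statistics were given for members past the threshold, the 6 with the largest changes, Gla, Hexa, Ppt1, Ppt2, Tfeb, Lamp1, Ctsd, Grn and Psap, and other members named besides. Promoters came from RefSeq (GRCm38.p6). There were 22 alternatives, 1 of them, without 2 arrays, added after seeing the data.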

Additional observations from a re-analysis of the deposited data

Results flagged for a closer look

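Log2 intensities of the 13 named members were examined for single arrays far from their group within a run, in the 4 groups of 4 to 10 arrays. This made 52 tests, each of 1 gene in 1 group, of which chance alone marks about 1 in 20. The tests share arrays and so are not independent. In all, 7 values stood out. In the motorneuron run these were Gla on 1 non-carrier array (6.896, the other 3 between 7.618 and 7.705), Arsa on the same array (7.794, others between 7.742 and 7.744) and Glb1 on another non-carrier array (7.788, others between 8.007 and 8.032). In run C they were Ctsd on 1 non-carrier array (9.817, others between 9.701 and 9.73), Gla and Grn both on another (7.485, others between 7.637 and 7.664, and 9.876, others between 9.771 and 9.798) and Lamp1 on a further one (9.927, others between 10.05 and 10.1). The last is also the non-carrier array of run C that correlated less with its run.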

How the results depend on the processing

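Against 2 members called lower, 0 called higher and 2.33% of all genes called, the counts moved as follows. With no block 0 members were lower and 0% of genes called by limma (805 genes at an unadjusted p of 0.05 or less, smallest adjusted p 0.2857). With run as a random block 0 members were lower, and with run C parted 4 were lower and 1 higher. With 4 motor neuron genes as covariates beside the run 12 were lower, 4 higher and 31.2% of genes called, and with a 4-gene correction in place of the block 0 were lower and 0.729% of genes called. Quantile normalization gave 1 lower (Arsa) and 1 higher (Cln3). Leaving out genes under the median intensity gave 6 lower and 1 higher, array weights 15 lower, 3 higher and 14.3% of genes, and leaving out the 2 less correlated arrays 1 higher and 3.65% of genes. With 1 run left out at a time, members called lower ranged from 0 (without A, D or 10-week) to 11 (without C), members called higher from 0 to 2 (without C), and genes called from 0.540% (without D) to 8.16% (without C). Psap passed in 14 of 22 alternatives and Gaa in 11, both lower in all 22. Tfeb, called in none, turned negative with no block (-0.0043), with the 4-gene correction (-0.020), with quantile normalization (-0.0020) and without run motorneuron, C, D or F (from -0.012 to 0.029 over the runs left out), and Grn was 0.0020 with the 4-gene correction. The causes of these moves were not tested.

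Replicate numbers are shared by both sera in 3 runs. Deviations of same-numbered arrays correlated at between -0.13 and 0.33, and those of differently numbered arrays at between -0.32 and 0.19. With so few arrays in each run, these values cannot tell whether the numbers pair the samples. A replicate block left 2 members lower (Psap and Gaa) and 0 higher, with 2.62% of genes called. The changes of Psap and Gaa were about as large as the SD between arrays of 1 run and serum (0.061 and 0.100).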
